A study of Homo sapiens with 8 samples.

Results

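The 10 genes described here are the cyclins, cyclin-dependent kinases and kinase inhibitors that act in the G1 phase of the cell cycle: the D-type cyclins CCND1, CCND2 and CCND3, the E-type cyclins CCNE1 and CCNE2, the kinases CDK4, CDK6 and CDK2, and the inhibitors CDKN1B (p27) and CDKN2C (p18). They were listed by name, with no measured value in the rule, and all 10 were among the 18892 rows of the RNA table. Of these, 9 reached at least 1 RPM (reads scaled by library size) in at least 2 of the 4 libraries and were tested among 11833 kept genes, and CCND2 did not. The cells were C4-2, an established prostate cancer cell line of the LNCaP lineage, carrying either shCDCA8, a short hairpin RNA against CDCA8 (2 libraries), or the control hairpin shCTRL (2 libraries). The CDCA8 protein, borealin, belongs to the chromosomal passenger complex, which works in mitosis. Both groups were grown in medium with serum and had no further treatment. The sample titles give only the name shCDCA8, not how many hairpins were used. The labels say neither whether the cells were a clone nor whether the libraries of a group came from separate cultures. The p-values thus measure the spread between these libraries, which may be technical. The series also holds 4 small RNA libraries of shEZH2 and shCTRL cells, whose table lists microRNAs and none of these genes.

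In G1, mitogen signals raise the D cyclins, which activate CDK4 and CDK6, and these kinases phosphorylate the retinoblastoma protein so that E2F transcription factors are released. Cyclin E with CDK2 then completes this step and starts S phase. CDKN2C belongs to the INK4 inhibitors, which bind CDK4 and CDK6 alone, whereas CDKN1B binds cyclin-kinase complexes and is best known for holding cyclin E-CDK2 in check. Much of the control of these proteins is by degradation and binding, which RNA levels do not show.

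Depth and library composition bear on every value. The authors' divisors corresponded to between 46709612 and 55289855 reads per library. The gene rows held 33.3% and 34.2% of the divisor in the shCDCA8 libraries, against 41.1% and 43.6% in the shCTRL libraries. The whole table was shifted, with a median log2 fold change of -0.27 over the kept genes. Each kept member is therefore also given after median-ratio scaling, where that median was 0.01. This scaling divides a library by the median, over genes, of its ratio to the mean of all 4 on a log scale. The target of the hairpin, CDCA8, had 3.98 and 3.94 RPM in the shCDCA8 libraries, against 14.2 and 16.5 RPM in the shCTRL libraries. Luminal prostate markers were present throughout. Their summed level over 8 genes was 1791 and 1909 RPM in shCDCA8 cells and 3237 and 3388 RPM in shCTRL cells. Of the 8, 5 fell, KLK3, KLK2 and TMPRSS2 among them, and 2 rose, KRT8 and KRT18. Of all kept genes, 47.6% fell and 18.8% rose. KLK3 alone stood at 364.1 and 437.9 RPM in shCDCA8 cells, against 1454 and 1477 RPM in shCTRL cells. After median-ratio scaling 4 of the 8 fell and 3 rose, where 33.6% of all kept genes fell and 33.2% rose. Markers of other cells had lower sums than the luminal markers. The 6 fibroblast markers summed to 4.59 and 5.30 RPM in shCDCA8 cells against 11.9 and 14.5 RPM in shCTRL cells, the 4 leukocyte and endothelial markers with a row to 10.2 and 11.8 RPM in shCDCA8 cells against 11.1 and 14.3 RPM in shCTRL cells, and the 1 basal marker with a row, KRT14, stood at 2.03 and 2.35 RPM in shCDCA8 cells against 2.53 and 2.53 RPM in shCTRL cells. Of these, COL1A1, PDGFRB and VWF fell and CD68 rose. COL1A1, a fibroblast marker, had 3.60 and 3.89 RPM in shCDCA8 cells, against 9.62 and 11.8 RPM in shCTRL cells. VWF, an endothelial marker, had 1.36 and 1.85 RPM in shCDCA8 cells, against 5.23 and 6.47 RPM in shCTRL cells. CD68 had 8.82 and 9.89 RPM in shCDCA8 cells, against 5.80 and 7.88 RPM in shCTRL cells. CD3E and PECAM1, markers of T cells and endothelium, were at most 0.0375 RPM in any library. The part of these markers in the results was not tested.

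Among the G1 genes, the inhibitor CDKN1B rose 2.02-fold, the kinase CDK4 fell to 0.396 of its control level, and the cyclins CCND3 and CCNE1 and the inhibitor CDKN2C also fell. Of the 9 kept genes, 1 rose, 4 fell and 4 were not called by limma at an adjusted p under 0.05. Calls made up 66.4% of all kept genes, with 18.8% higher and 47.6% lower, beside 5 of 9 G1 genes. After median-ratio scaling CDK4, CCND3, CCNE1 and CDKN2C fell, while CDKN1B, CCND1 and CDK6 rose. These were 7 of 9, beside 66.8% of all kept genes, with 33.2% higher and 33.6% lower. Whether the G1 genes were called more or less often than other genes was not tested. The median log2 fold change of the 9 was -0.13, beside -0.27 over all kept genes, and 0.17 beside 0.01 after median-ratio scaling. The RPM of the groups did not overlap for 8 of the 9, with 3 higher and 5 lower, which was so for 83.2% of all kept genes (26.5% higher, 56.8% lower). In such bulk libraries, a changed share of cells in G1 and a changed RNA level per cell cannot be told apart.

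**Figure D1:**
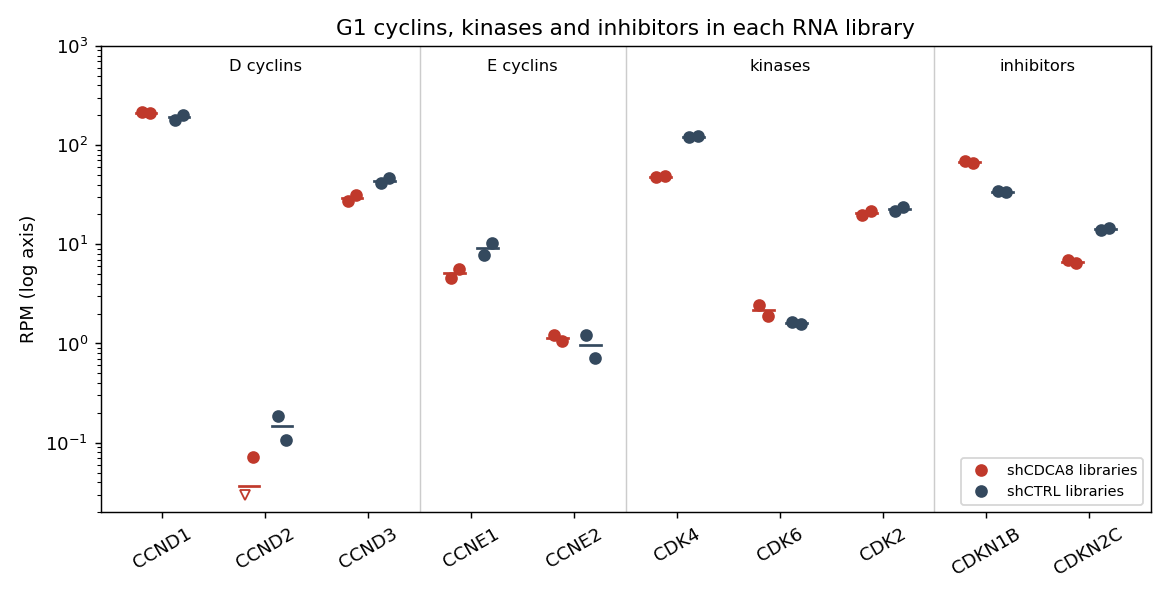
Level of each of the 10 genes (RPM, log axis) in the shCDCA8 and shCTRL libraries. Each point is a library and each short line the mean of 2; the open triangle at the bottom marks the shCDCA8 library where CCND2 is listed at 0. CDKN1B stands at 69.9 and 66.7 RPM in shCDCA8 cells, above both shCTRL libraries, and CDK4 at 47.4 and 49.0 RPM, below both.

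CCND1 encodes cyclin D1, which links mitogen signals to CDK4 and CDK6 and is often overexpressed in cancer. It had 214.7 and 209.9 RPM in shCDCA8 cells, against 180.8 and 201.8 RPM in shCTRL cells. Both shCDCA8 libraries were above both shCTRL libraries, by a small margin. Its log2 fold change was 0.15 ± 0.09 (SE, n = 2 against 2; 95% interval -0.05 to 0.36; limma adjusted p = 0.167), so it was not called. After median-ratio scaling it rose by 0.46 (limma adjusted p = 0.000946; 3.14e-05 to 0.64 over all alternatives). Whether CCND1 was called thus changed with the scaling.

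CCND3, the D cyclin best known from lymphoid cells, fell. It stood at 27.0 and 31.3 RPM in shCDCA8 cells and at 41.2 and 46.2 RPM in shCTRL cells, with no overlap. On the log2 scale it fell by 0.57 (SE 0.12, n = 2 per group, limma adjusted p = 0.0011). The log2 fold change was -0.27 after median-ratio scaling (limma adjusted p = 0.0331), and DESeq2 on the recovered reads gave an adjusted p of 0.0522 (6.79e-07 to 0.0522 over all alternatives). CCND2, the remaining D cyclin, had very few reads in these libraries. It was listed at 0 and 0.07 RPM in shCDCA8 cells, from 0 and 4 reads, against 0.19 and 0.11 RPM in shCTRL cells, from 10 and 5 reads. The count of 0 allows a level of up to 0.0574 RPM (3 reads in that library, counting error only). Both shCDCA8 libraries lay below both shCTRL libraries, on these few reads. CCND2 did not pass the filter of 1 RPM, so its difference was not tested.

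The E cyclins bind CDK2 at the G1/S boundary. CCNE1 stood at 4.61 and 5.63 RPM in shCDCA8 cells, against 7.80 and 10.3 RPM in shCTRL cells. The groups did not overlap, although the shCTRL libraries differed from each other by more than the shCDCA8 libraries did. CCNE1 fell by 0.71 on the log2 scale (SE 0.16, n = 2 against 2, limma adjusted p = 0.00177), and by 0.44 after median-ratio scaling (limma adjusted p = 0.0264; 4.07e-06 to 0.0342 over all alternatives).

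CCNE2, its paralog, was lower in reads and less precise. It had 1.21 and 1.07 RPM in shCDCA8 cells, from 63 and 59 reads, and 1.22 and 0.71 RPM in shCTRL cells, from 65 and 33 reads. The shCDCA8 values lay between the shCTRL values. The log2 fold change of 0.13 (95% interval -0.19 to 0.45, limma adjusted p = 0.436) was not called. After median-ratio scaling, where both shCDCA8 libraries were above both shCTRL libraries, it was 0.29 (limma adjusted p = 0.122; 0.01 to 0.784 over all alternatives). The log2 fold change was -0.06 without shCTRL replicate 2 and 0.32 without shCTRL replicate 1. It was 0.52 with edgeR (adjusted p = 0.169), 0.54 with DESeq2 (adjusted p = 0.329) and 0.54 with quantile normalization, the only alternative with a call (limma adjusted p = 0.01). In RefSeq gene order (GRCh38.p14) CCNE2 overlaps INTS8 and NDUFAF6, and the sources used here do not say whether reads were counted by strand. INTS8 had 11.9 and 12.7 RPM in shCDCA8 cells, against 7.80 and 5.35 RPM in shCTRL cells. NDUFAF6 had 5.55 and 5.39 RPM in shCDCA8 cells, against 5.25 and 6.08 RPM in shCTRL cells. How far the reads of either gene touch the CCNE2 value was not tested.

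CDK4, a kinase of the D cyclins, had the largest fall of the G1 genes. It stood at 47.4 and 49.0 RPM in shCDCA8 cells and at 120.0 and 123.2 RPM in shCTRL cells. The replicates of each group were within a few RPM of each other and the groups lay far apart. The mean in shCDCA8 cells was 0.396 of that in shCTRL cells. The log2 fold change was -1.32 ± 0.10 (SE, 2 libraries per group, limma adjusted p = 4.65e-07), and 7.38% of all kept genes had a fold change as low or lower. CDK4 also fell after median-ratio scaling, by 1.01 on the log2 scale, and in each of 15 alternatives it was called, with a log2 fold change no lower than -1.34 and no higher than -0.995. TSPAN31, which overlaps CDK4 in RefSeq gene order, had 13.2 and 13.6 RPM in shCDCA8 cells and 11.1 and 11.7 RPM in shCTRL cells.

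The 250 bases before the RefSeq start site of CDK4 (GRCh38.p14, chr12:57752311-57752560, minus strand) are shown because CDK4 moved most among the falling genes. CDK4 is a textbook target of MYC, which binds the E-box CACGTG. Capitals mark this motif, which is its own reverse complement.
CDK4: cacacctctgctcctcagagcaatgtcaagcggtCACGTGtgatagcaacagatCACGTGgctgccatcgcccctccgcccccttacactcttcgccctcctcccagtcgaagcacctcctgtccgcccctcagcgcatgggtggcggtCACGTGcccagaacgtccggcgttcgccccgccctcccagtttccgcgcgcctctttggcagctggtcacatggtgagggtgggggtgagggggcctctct
The stretch holds 3 E-boxes, starting 216, 196 and 101 bases before the start site. Of 35116 RefSeq promoter stretches of this length, 6.34% hold at least 1 and 0.0797% at least 3. The motifs were chosen with the fold changes known, and a match is a description of the sequence, not a bound site.

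CDK6, the other kinase of the D cyclins, was read far less. It had 2.45 and 1.90 RPM in shCDCA8 cells, from 128 and 105 reads, against 1.63 and 1.56 RPM in shCTRL cells, from 87 and 73 reads. Both shCDCA8 libraries were above both shCTRL libraries. The log2 fold change of 0.28 (95% interval -0.02 to 0.58) was not called (limma adjusted p = 0.0855), and after median-ratio scaling CDK6 rose by 0.49 (limma adjusted p = 0.015; 0.00325 to 0.496 over all alternatives).

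CDK2, the kinase of the E cyclins, stood at 20.0 and 21.8 RPM in shCDCA8 cells, against 21.8 and 24.0 RPM in shCTRL cells. The highest shCDCA8 library and the lowest shCTRL library were nearly equal. Its log2 fold change was -0.13 (95% interval -0.39 to 0.13, limma adjusted p = 0.361) and turned to 0.17 (95% interval -0.05 to 0.39) after median-ratio scaling, with no call in any of 15 alternatives. No direction is given for CDK2, and changes within these intervals cannot be told from none.

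**Figure D2:**
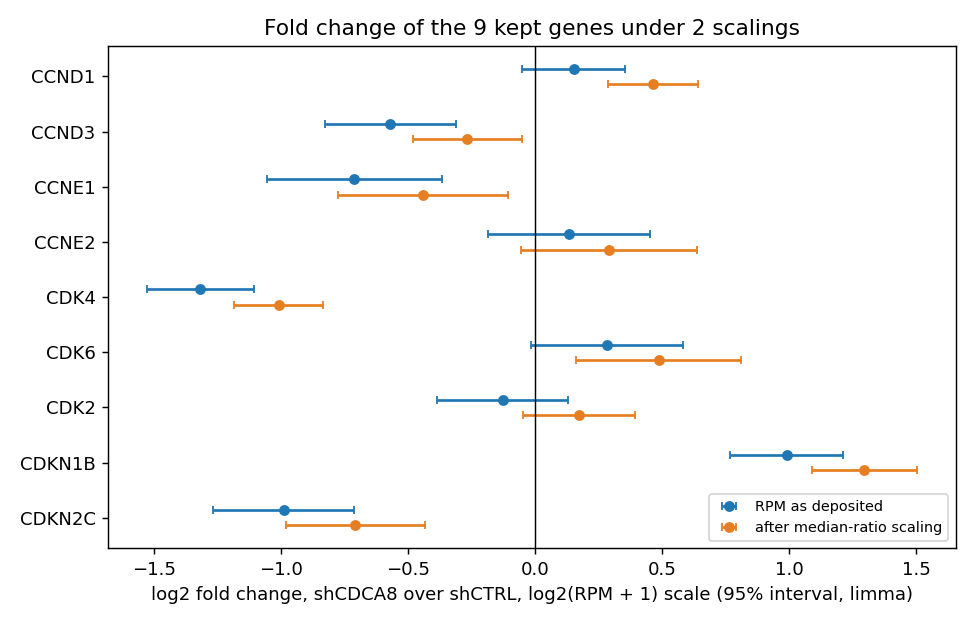
Log2 fold change of each kept G1 gene, shCDCA8 over shCTRL, on the log2(RPM + 1) scale, as a point with its 95% limma interval (n = 2 against 2). Blue is RPM as deposited and orange is after median-ratio scaling. CDKN1B lies above 0 and CDK4, CDKN2C, CCND3 and CCNE1 below 0 under both, while the intervals of CCND1 and CDK6 leave 0 only after scaling.

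CDKN1B, the inhibitor p27, was the only G1 gene that rose as deposited. It had 69.9 and 66.7 RPM in shCDCA8 cells, against 34.1 and 33.7 RPM in shCTRL cells. Each shCDCA8 library was far above each shCTRL library. The mean was 2.02 times that of shCTRL cells. The log2 fold change was 0.99 ± 0.10 (SE, 2 libraries per group, limma adjusted p = 6.13e-06), at or above that of 96.7% of all kept genes. After median-ratio scaling CDKN1B rose by 1.30, and over 15 alternatives its log2 fold change lay between 0.91 and 1.32, with a call in each.

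CDKN2C, the INK4 inhibitor p18, moved the other way. It stood at 6.89 and 6.44 RPM in shCDCA8 cells, against 13.9 and 14.6 RPM in shCTRL cells. The groups were well apart, and the replicates of each lay within 1 RPM of each other. CDKN2C fell by 0.99 on the log2 scale (SE 0.13, n = 2 against 2, limma adjusted p = 3.33e-05), and by 0.71 after median-ratio scaling.

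The 250 bases before a RefSeq start site are shown for both inhibitors, since they moved in opposite directions (GRCh38.p14, plus strand). For CDKN1B, at chr12:12717118-12717367, capitals mark CCAAT on either strand, the motif of the factor NF-Y, long described at this promoter. For CDKN2C, at chr1:50968456-50968705, the second of 3 start sites, capitals mark GGCGGGAA on either strand, a motif of the E2F factors.
CDKN1B: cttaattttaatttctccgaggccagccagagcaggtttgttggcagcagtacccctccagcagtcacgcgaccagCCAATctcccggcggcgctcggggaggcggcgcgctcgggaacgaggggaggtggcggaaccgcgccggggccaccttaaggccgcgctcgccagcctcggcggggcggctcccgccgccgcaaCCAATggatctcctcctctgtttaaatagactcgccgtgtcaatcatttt
CDKN2C: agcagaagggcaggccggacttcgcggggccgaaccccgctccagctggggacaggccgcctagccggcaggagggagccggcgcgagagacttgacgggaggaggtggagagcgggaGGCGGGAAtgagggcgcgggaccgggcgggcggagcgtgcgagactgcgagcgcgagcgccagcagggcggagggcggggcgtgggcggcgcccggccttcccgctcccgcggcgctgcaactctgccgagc
CDKN1B holds 2 CCAAT motifs, starting 174 and 50 bases before the start site, and 9.53% of the 35116 promoter stretches hold at least 2. The CDKN2C stretch shown holds 1 GGCGGGAA, starting 132 bases before the start site, and 2.72% of all stretches hold at least 1. The stretches of the other CDKN2C start sites hold none, nor do those of CDK4, CDKN1B, CCND3, CCNE1 and CDK6, so the motif was in 1 of the 11 stretches of these 6 genes. CCAAT was in 4 of the 11, CDKN1B, CCND3 and CDKN2C among the genes, and 32.0% of all stretches hold it. CACGTG was in 3 of the 11, that of CDK4 and the 2 CDKN2C stretches not shown. Of the other motifs searched on either strand, GGGCGG, the GC box, was in 8 of the 11 stretches and in 42.6% of all stretches, while TTTGGCGC or TTTCGCGC, further E2F motifs, and TGTTTAC, a forkhead motif, were in none of the 11.

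Ratios between members within a library do not depend on how libraries were scaled. Of 9 ratios listed, 8 could be computed, and CCND2 to CCND1 could not because CCND2 was listed at 0 in 1 library. The groups did not overlap for any of the 8. The RPM of the groups did not overlap for 83.2% of all kept genes either, and the share over other gene pairs was not computed. Members recur among the 8 ratios, so these are not separate observations. With 2 libraries against 2 the exact two-sided permutation test cannot go below p = 0.333. Each of the 8 had this value (0.333 after Benjamini-Hochberg adjustment over the 8). The widest gap was between the inhibitors. CDKN2C to CDKN1B was 0.0986 and 0.0966 in shCDCA8 cells, against 0.407 and 0.433 in shCTRL cells, a log2 difference of -2.10.

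Both other kinases stood higher relative to CDK4 in the shCDCA8 libraries. CDK6 to CDK4 was 0.0517 and 0.0387 in shCDCA8 cells and 0.0136 and 0.0127 in shCTRL cells, a log2 difference of 1.77. CDK2 to CDK4 was 0.422 and 0.445 in shCDCA8 cells, against 0.182 and 0.195 in shCTRL cells. The D cyclin CCND1 likewise stood higher against its kinase, with CCND1 to CDK4 at 4.54 and 4.28 in shCDCA8 cells and 1.51 and 1.64 in shCTRL cells.

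For the CDK2 complexes, CDKN1B to CDK2 was 3.50 and 3.06 in shCDCA8 cells, against 1.56 and 1.40 in shCTRL cells. CCNE1 to CDK2 was 0.231 and 0.258 in shCDCA8 cells, against 0.357 and 0.431 in shCTRL cells. There was thus more CDKN1B RNA and less CCNE1 RNA per read of CDK2 in the shCDCA8 libraries. CCNE2 and the other inhibitors were not set against CDK2. Within the cyclin families, CCND3 to CCND1 was 0.126 and 0.149 in shCDCA8 cells against 0.228 and 0.229 in shCTRL cells, and CCNE2 to CCNE1 was 0.261 and 0.190 in shCDCA8 cells against 0.156 and 0.0683 in shCTRL cells. Transcript lengths were not used, so a ratio says nothing of which of 2 genes had more transcripts, and its change between groups is what can be read.

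**Figure D3:**
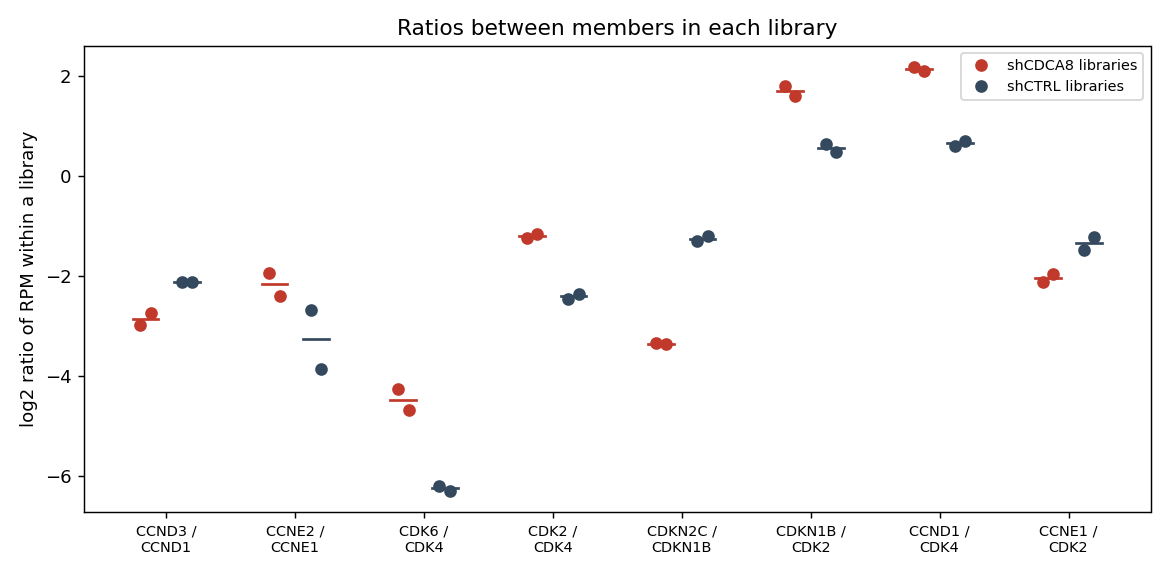
Log2 ratio of the RPM of 2 G1 genes within each library, for the shCDCA8 and shCTRL libraries. Each point is a library and each line the mean of 2. No ratio overlaps between the groups. The RPM of 83.2% of all kept genes does not overlap between the groups either, and the ratios share members. CDKN2C / CDKN1B shows the widest gap, a log2 difference of -2.10.

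Against all genes of the table, most G1 genes lay within the bulk of the distribution. CDK4 and CDKN1B were the members nearest to its ends, at percentiles 7.38 and 96.7 of the log2 fold change. CDKN2C stood at percentile 14.9, CCNE1 at 26.3 and CCND3 at 33.4. The other 4 lay between percentile 58.1 (CDK2) and 80.0 (CDK6). The genes whose profile over the 4 libraries was nearest to that of CDKN1B were UBR2 (Euclidean distance 0.012 between centred log2(RPM + 1) values), UTP3 (0.045) and AAGAB (0.047), with a mean of 5 RPM or more required. Those nearest to CDK4 were R3HDM1 (0.029), E2F3 (0.033) and EPB41 (0.040). With 4 libraries in 2 groups such a distance mostly reflects the size of the fold change.

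**Figure D4:**
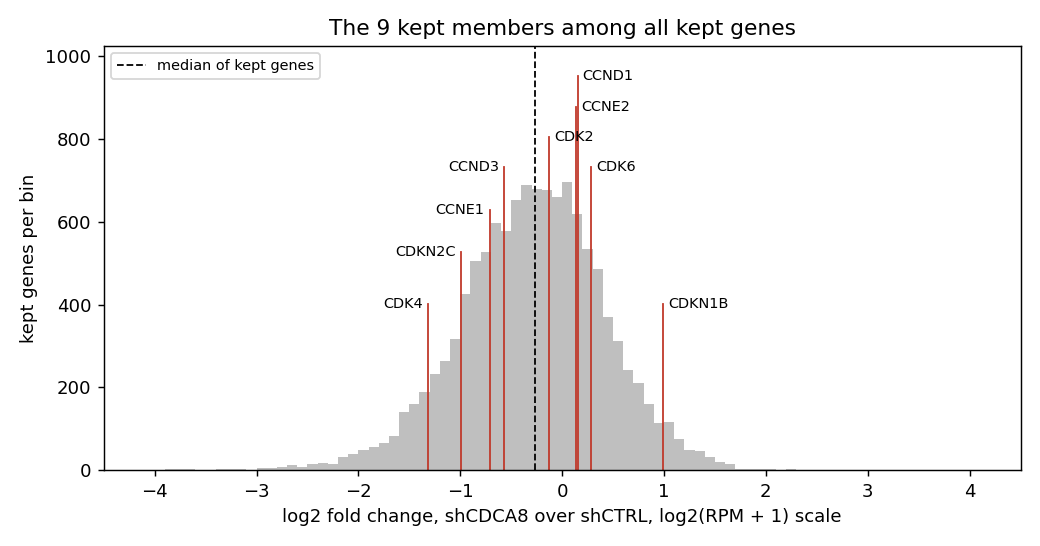
Histogram of the log2 fold change, shCDCA8 over shCTRL, on the log2(RPM + 1) scale, over the 11833 kept genes, with the 9 kept G1 genes as red lines. The dashed line is the median of all kept genes (-0.27). CDK4 at -1.32 and CDKN1B at 0.99 lie toward the ends of the distribution.

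None of the other kept CDK inhibitors rose as deposited. Of 4 kept (5 listed), 2 fell and 2 were not called, where 47.6% of all kept genes fell and 18.8% rose. The median log2 fold change was -0.53, beside -0.27 over all kept genes. After median-ratio scaling 2 of the 4 fell and 2 rose, where 33.6% of all kept genes fell and 33.2% rose. CDKN2A, the INK4 and ARF locus, had 4.21 and 3.71 RPM in shCDCA8 cells, against 15.0 and 14.3 RPM in shCTRL cells (log2 fold change -1.66). CDKN1C, the p27 relative p57, had 1.95 and 1.85 RPM in shCDCA8 cells, against 4.62 and 5.29 RPM in shCTRL cells (log2 fold change -1.04). CDKN2D (p19) was not called as deposited, at 7.24 and 7.25 RPM in shCDCA8 cells and 7.15 and 6.57 RPM in shCTRL cells. Nor was CDKN1A (p21), at 323.3 and 323.6 RPM in shCDCA8 cells and 335.2 and 323.5 RPM in shCTRL cells. After median-ratio scaling CDKN1A rose by 0.29 on the log2 scale (limma adjusted p = 0.0113).

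Genes of the machinery that degrades p27 and the cyclins were called in both directions. Of 12 kept genes of cyclin and inhibitor turnover, 3 fell, 2 rose and 7 were not called. Of all kept genes, 47.6% fell and 18.8% rose. The median log2 fold change was 0.03, beside -0.27 over all kept genes. After median-ratio scaling 3 of the 12 fell and 8 rose, where 33.6% of all kept genes fell and 33.2% rose. SKP2, the subunit that recognises p27 for degradation, had 9.70 and 8.34 RPM in shCDCA8 cells, against 16.4 and 17.8 RPM in shCTRL cells (log2 fold change -0.86). CKS1B, its cofactor for p27, had 8.36 and 9.13 RPM in shCDCA8 cells, against 17.8 and 19.6 RPM in shCTRL cells (log2 fold change -1.01). Both fell, as did DTL, the substrate receptor of another ligase, at -0.94. CUL3, a ligase scaffold reported to act on cyclin E, rose by 0.93. FBXW7, which recognises phosphorylated cyclin E, rose by 0.36.

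Genes that set kinase activity were also called in both directions. Of 6 kept genes, 2 rose, 2 fell and 2 were not called, where 18.8% of all kept genes rose and 47.6% fell. The median log2 fold change was 0.15, beside -0.27 over all kept genes. After median-ratio scaling 4 of the 6 rose and 2 fell, where 33.2% of all kept genes rose and 33.6% fell. CCNH and CDK7, the cyclin and kinase of the CDK-activating complex, rose by 0.64 and 0.36 on the log2 scale. CDC25A, the phosphatase that activates CDK2, fell by 0.71, and WEE1, a kinase that holds CDKs inactive, fell by 0.84.

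Downstream of the G1 kinases, 7 of 10 kept pocket protein and E2F genes fell, 1 rose and 2 were not called (median log2 fold change -0.86, beside -0.27 over all kept genes), where 47.6% of all kept genes fell, and after median-ratio scaling 6 fell and 1 rose, where 33.6% of all kept genes fell. E2F1 had 7.24 and 8.03 RPM in shCDCA8 cells, against 23.0 and 27.4 RPM in shCTRL cells, and E2F2 and E2F3 fell by 1.56 and 1.34. RB1, which encodes the retinoblastoma protein itself, was the gene that rose, by 0.63. Of 8 S and M phase cyclins and proliferation markers, 7 fell and 1 was not called (median log2 fold change -0.76), beside the same 47.6% and -0.27 over all kept genes, and after median-ratio scaling 5 fell and 1 rose, beside 33.6% that fell. CCNB2, a mitotic cyclin, fell by 1.55, CCNA2, the S phase cyclin, by 1.15 and CCNB1 by 1.05. CDK1, the mitotic kinase, was the gene not called as deposited, at 16.5 and 14.7 RPM in shCDCA8 cells and 16.3 and 13.0 RPM in shCTRL cells. After median-ratio scaling CDK1 rose by 0.38 on the log2 scale (limma adjusted p = 0.0481), and edgeR did not call it (edgeR adjusted p = 0.0614).

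**Figure D5:**
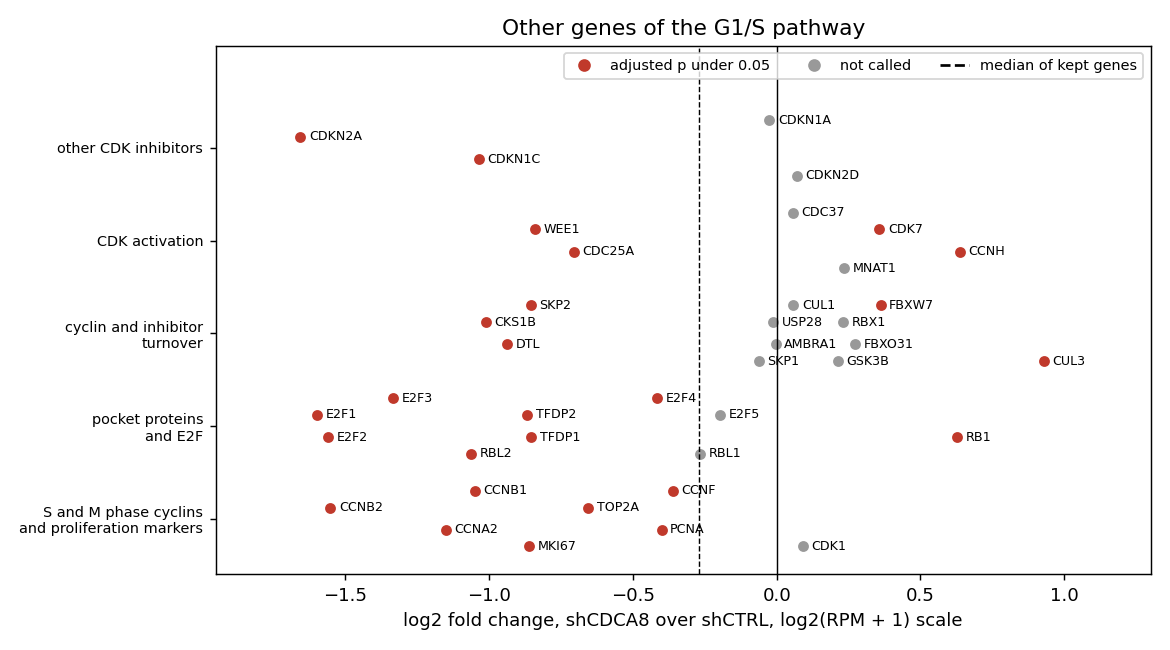
Log2 fold change, shCDCA8 over shCTRL, on the log2(RPM + 1) scale, of each kept gene in 5 further lists of the pathway. Red points have a limma adjusted p under 0.05, grey points do not, and the dashed line is the median of all kept genes (-0.27). CDKN2A at -1.66 and E2F1 at -1.60 lie farthest left, and CUL3 lies farthest right at 0.93.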

How the data were processed

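RNA was measured in 2 shCDCA8 and 2 shCTRL libraries of C4-2 cells. The values are RPM as deposited, per the file headers and names. Per the submitters' processing notes, TopHat, HTSeq, edgeR, cutadapt and hg19 were used, with no versions or roles, and the sources used here do not give the annotation or the divisor of the RPM. All values above 0 (100%) lay within 0.01 of a whole multiple of their library's step, so whole reads were recovered.

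The main test was limma 3.58.1 in R 4.3.3 on log2(RPM + 1), a scale that understates the change of low genes (moderated by a trend of variance on mean, two-sided, Benjamini-Hochberg adjustment over the 11833 genes at 1 RPM or more in 2 or more libraries). A call is an adjusted p under 0.05, and "rose" and "fell" refer to calls. Count models on the recovered reads (edgeR 4.0.16, which called 7807 genes, and DESeq2 1.42.0) and other scalings, filters, pseudocounts and left-out libraries were alternatives. Libraries of a group were not duplicates: their reads gave a chi-square per degree of freedom of 10.0 in shCDCA8 and 8.08 in shCTRL.

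The members, lists and tests were chosen with earlier results of these data known. The rule named the 10 members, CDCA8, the 3 smallest p of each list and the nearest profiles. DTL, FBXW7, CDK7, RB1, CDK1, CDKN1A, KRT8, KRT18, CD3E and PECAM1 were named after their values were seen, and overlapping genes for their position. A further luminal marker is not reported here. Promoter sequences are from RefSeq (GRCh38.p14), where 6 members outside chromosome 8 had 11 start sites. The motifs were not searched for CCND1, CCND2 and CDK2, which had no promoter sequence at hand, nor for CCNE2. No coordinate was converted between builds.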

Additional observations from a re-analysis of the deposited data

How the results depend on the processing

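Across 15 alternatives between 5974 (filter at 5 RPM) and 8901 genes were called, beside 7852 as reported. The share of higher calls was 28.3% as deposited, against 49.7% after median-ratio scaling and 49.3% with edgeR. Between 5 and 8 of the G1 genes were called, with 5 as reported. Quantile normalization called 8, adding CCND1, CCNE2 and CDK6, beside 7701 of all 11833 kept genes. DESeq2 also called 5, with CCND1 in place of CCND3, beside 7214 of all kept genes. CDK2 changed sign to 0.17 after median-ratio scaling, 0.19 with libraries scaled to their row totals, 0.13 with quantile normalization, 0.17 with edgeR and 0.18 with DESeq2, always without a call. CCNE2 changed sign to -0.056 without shCTRL replicate 2, within a range of -0.056 to 0.32 over the 4 libraries left out in turn. Leaving out each library in turn gave between 6717 and 7683 called genes and 5 G1 genes each time; such a fit sets 1 library against 2 and assumes that the lone library varies like the other group. The replicate numbers are shared between the groups, but the labels do not say that a number marks a common culture or day. Same-numbered libraries deviated together (r = 0.313 over 11833 genes), with only 2 pairs. With the replicate number as a block, 8901 genes and 5 G1 genes were called. No ratio between members changed direction in any of its 6 alternatives. Since the groups did not overlap, leaving out a library could not reverse a ratio. The replicate block gives the same difference by construction. Only adding 1 to each RPM could have changed a direction. CCNE2 to CCNE1 ranged most, from 0.51 to 1.71 (log2 difference). The cause was not tested. Depth limits CCND2, CCNE2 and CDK6, which had at most 128 reads in a library.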
